A study of Macaca mulatta with 13 samples.

Results

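The genes described here encode the subunits, activators, inhibitor and assembly factors of the proteasome, the protease that degrades ubiquitin-tagged proteins. They were taken as every probe set that the platform annotation pairs with a single gene symbol that begins with PSMA, PSMB, PSMC, PSMD, PSME, PSMF or PSMG followed by a digit. The rule found 73 probe sets for 33 genes, out of 52707 probe sets and 14132 named genes in the whole table. Each gene was represented by its probe set of highest mean over the 13 arrays. One of the 33, PSMC3IP, shares the prefix but encodes a recombination cofactor of meiosis and no proteasome protein, which leaves 32 proteasome genes. Members that the annotation does not pair with a probe set of their own, among them PSMB9 and PSME1, were not analysed here.

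The proteasome consists of a barrel-shaped core, the 20S particle, and a cap that recognises and unfolds the substrate. The outer rings of the core are made of alpha subunits (PSMA genes) and the inner rings of beta subunits (PSMB genes), of which PSMB5, PSMB6 and PSMB7 carry the proteolytic sites. In cells exposed to interferon gamma, and constitutively in many leukocytes, PSMB8, PSMB9 and PSMB10 replace these catalytic subunits to form the immunoproteasome, while PSME1 and PSME2 form the PA28 activator; both favour peptides that bind MHC class I molecules.

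RNA came from peripheral blood mononuclear cells, the lymphocytes and monocytes of the blood, of 13 rhesus macaques aged 4 months. Of these animals 5 were maternally reared, 4 peer reared and 4 surrogate-peer reared, and the study asked whether expression depended on early rearing. Each animal gave 1 Affymetrix rhesus array, so n counts animals, and the p-values measure the spread between them. The labels do not describe the rearing procedures or give the sex of the animals, and no genotype, treatment or batch is named. Arrays are numbered within each group in the order of the deposit. The peer and surrogate-peer animals together are called non-maternal. All levels are log2 values, so a difference of 1 is a doubling, and a level of one gene cannot be set against that of another.

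The measured markers of T cells, B cells and monocytes all had means above 6.04, the filter on low values. The 9 T cell markers had means from 6.30 (BCL11B) to 12.78 (TCF7), with CD28, CD6 and CD4 also dim, at up to 7.04. The 8 B cell markers ran from 7.14 (CD79A) to 11.66 (MS4A1) and the 10 monocyte markers from 7.19 (MS4A7) to 13.59 (TYROBP), while the platelet chemokine PPBP also reached 13.85. Groups differed in measures outside the proteasome. The mean of 9 T cell markers, each centred on its mean over all arrays, lay between -0.56 and -0.00 in maternal animals and between -0.05 and 0.36 in the others, and that of 9 NK and cytotoxic markers between -0.06 and 0.94 and between -0.75 and 0.45. The mean of 8 B cell markers lay between 0.07 and 0.98 in maternal, -0.28 and 0.50 in peer and -1.20 and -0.21 in surrogate-peer animals, and 0 of the 8 had a positive difference in any of the 4 comparisons described here. The mean of 14 type I interferon response genes was 1.64 on maternal array 2 and 1.60 on maternal array 5, against -0.79 to 0.17 on the other arrays, and the mean of 10 monocyte markers was highest on the same arrays (0.76 and 0.82). The 3' to 5' log2 ratio of the control transcripts, a measure of RNA integrity, was 1.85 ± 0.28 (SD, n = 5) in maternal and 1.45 ± 0.14 (SD, n = 8) in non-maternal animals. Over all 26352 probe sets tested, limma called 1751 higher and 356 lower in non-maternal animals. After centring each array on its median the split was 1094 higher and 834 lower, and after a further quantile normalization 876 and 455. In bulk RNA, fewer cells of a type and less RNA per cell cannot be told apart.

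The first comparison set the 8 non-maternal against the 5 maternal animals. PSMA3, a subunit of the alpha ring, PSMC6, an ATPase of the cap, and PSMD2 and PSMD11, non-ATPase subunits of the cap, rose 1.26- to 1.45-fold in the non-maternal animals. No member fell. Limma thus called 4 of the 33 members (12.1%) higher and 0 lower at an adjusted p under 0.05, where 6.3% of the 9657 genes tested were called higher and 1.69% lower. Of the 6010 genes above the 75th percentile of probe set means, where 31 of the 33 members lay, 8.1% were called higher. At an unadjusted p under 0.05 there were 11 of the 33 members, against 29.7% of all genes. All 33 representative probe sets had passed the filter on low values, as had 63 of the 73 member probe sets.

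PSMC6 encodes one of the ring of ATPases that thread substrates into the core. It measured 7.61, 7.89, 7.32, 7.28 and 7.63 on maternal arrays 1 to 5. The peer arrays gave 8.14, 8.03, 8.10 and 7.94, and the surrogate-peer arrays 7.90, 8.27, 8.28 and 8.0. Each non-maternal value thus lay above every maternal value, the nearest being surrogate-peer array 1 at 7.90 and maternal array 2 at 7.89. The log2 fold change was 0.54 ± 0.11 (SE; 95% interval 0.30 to 0.78; adjusted p = 0.0238), a 1.45-fold difference. The annotation pairs a further probe set with PSMC6 together with 3 uncharacterised loci, and that one rose as well (0.34 ± 0.07, adjusted p = 0.0243). Another set with the same symbols had a mean of 3.07, under the filter on low values. It was not tested and gave -0.06. Near-identical copies may share the signal of these probe sets, so the assignment to PSMC6 is uncertain.

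PSMA3 measured 11.78, 11.65, 11.60, 11.61 and 11.31 on the maternal arrays. It stood at 12.04, 11.82, 11.95 and 11.94 in peer animals and at 11.85, 11.92, 11.98 and 11.90 in surrogate-peer animals. The groups did not overlap, and the maternal spread (SD 0.17, n = 5) was wider than the non-maternal one (SD 0.07, n = 8). The log2 fold change was 0.34 ± 0.08 (adjusted p = 0.0297), and another PSMA3 probe set rose by 0.44 ± 0.10 (adjusted p = 0.0257).

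PSMD2, a scaffold of the cap's base that holds ubiquitin receptors, measured 9.10, 8.98, 9.07, 8.80 and 8.59 in maternal animals. Peer animals gave 9.43, 9.14, 9.19 and 9.21, and surrogate-peer animals 9.23, 9.31, 9.37 and 9.24. Again no value overlapped, although peer array 2 at 9.14 lay close to maternal array 1 at 9.10. The log2 fold change was 0.36 ± 0.09 (adjusted p = 0.0375).

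PSMD11, a subunit of the cap's lid, measured 9.32, 9.07, 9.17, 9.09 and 8.76 in maternal animals. It reached 9.51, 9.40, 9.29 and 9.53 in peer and 9.43, 9.35, 9.52 and 9.38 in surrogate-peer animals. Maternal array 1 exceeded peer array 3, so these groups overlapped by a single value. The log2 fold change was 0.34 ± 0.09 (adjusted p = 0.0384), and a dimmer PSMD11 probe set rose by 0.57 ± 0.12 (adjusted p = 0.0262). In all, 3 of the 33 members had non-maternal values wholly above the maternal ones, against 1.58% of all genes.

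These 4 calls depended on single animals, while the log2 fold changes without single arrays stayed between 0.47 and 0.62 for PSMC6, 0.26 and 0.38 for PSMA3, 0.28 and 0.41 for PSMD2 and 0.26 and 0.40 for PSMD11. No call remained without maternal array 4, maternal array 5 or peer array 1, where limma called 30, 60 and 309 of all probe sets; 1 remained without peer array 4 or surrogate-peer array 3, and 2 without maternal array 2, peer arrays 2 or 3, or surrogate-peer arrays 1, 2 or 4. Centring each array on its median left PSMA3 and PSMC6, and quantile normalization left PSMC6. With the 3' to 5' ratio as a covariate PSMC6 (0.28, adjusted p = 0.228) and PSMD2 (0.46, adjusted p = 0.065) were no longer called, while PSMA3 and PSMD11 were.

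**Figure D1:**
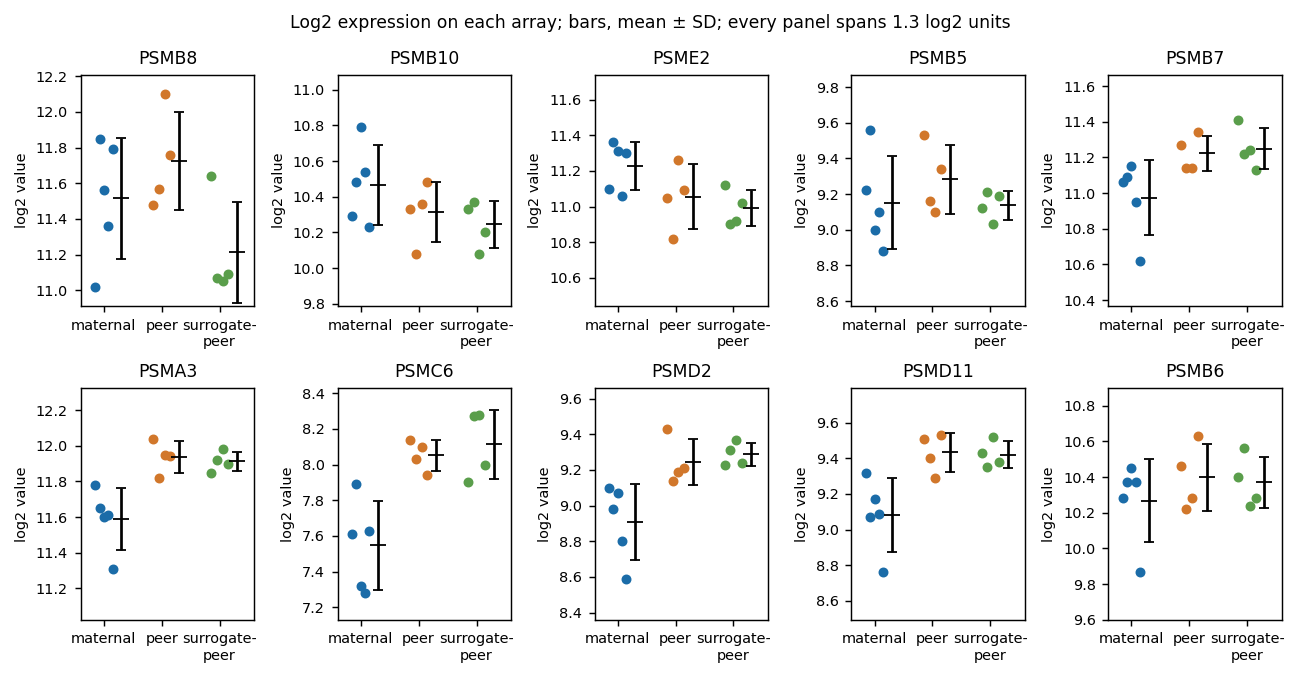
Log2 level (vertical axis) of 10 proteasome genes on each of the 13 arrays, by rearing group (horizontal axis), with the mean ± SD beside the points (5 maternal, 4 peer and 4 surrogate-peer animals). Axes differ between panels but all span the same length. PSMA3, PSMC6 and PSMD2 show no overlap of maternal with other values, while PSMB8 spreads from 11.02 to 12.10.

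Among the 21 constitutive subunits measured of 31 listed, 19 had a positive difference between non-maternal and maternal animals, with a median of 0.17, while the median was 0.10 over the 33 members, 0.01 over all genes tested and 0.08 over the 6010 bright genes, of which 60.8% were positive. The exceptions were PSMD8 (-0.03) and PSMD13 (-0.17 ± 0.10, adjusted p = 0.258), both of the cap's lid. PSMC4 counted as positive at 0.00. The number of positive constitutive subunits was 15 after centring each array, where PSMB1, PSMB2, PSMB5 and PSMC4 also turned negative, and 16 after quantile normalization. The mean of the 21 genes, each centred on its mean over the 13 arrays, was -0.03, -0.02, -0.03, -0.09 and -0.36 on the maternal arrays. It was 0.16, -0.02, -0.01 and 0.14 on the peer and 0.09, 0.13, 0.01 and 0.01 on the surrogate-peer arrays. Maternal array 5 stood well below the rest: it was the lowest of all 13 arrays for 15 of the 21 genes. Without that array 16 of the 21 genes were positive, and the mean difference of 0.17 became 0.10. With all 13 arrays it was 0.11 after centring each array and 0.12 after quantile normalization. Maternal array 5 also carried high interferon and monocyte scores and a low T cell score (-0.55). Maternal array 2 had similar scores (interferon 1.64, monocyte 0.76, T cell -0.56) and a constitutive mean of -0.02. The part of these scores in the result was not tested.

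**Figure D2:**
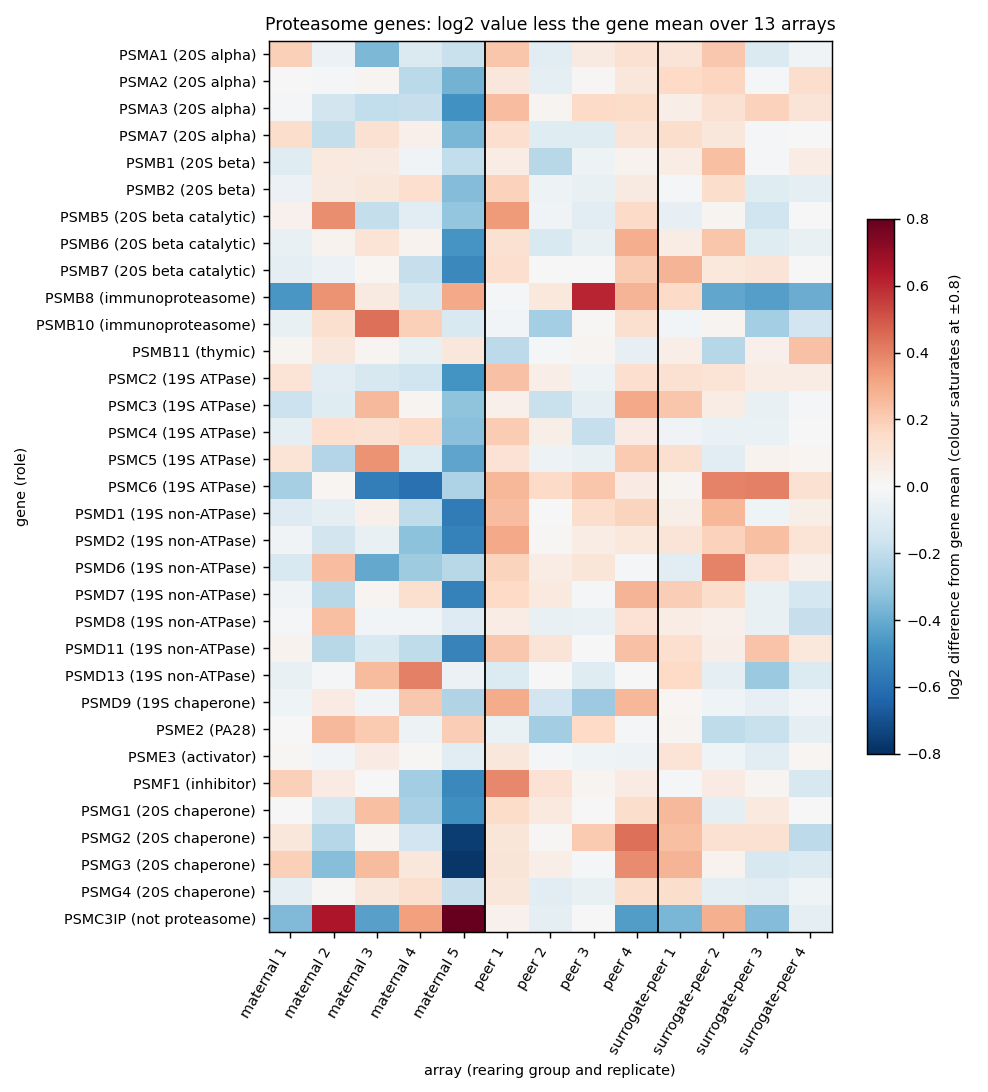
Log2 level of each of the 33 genes (rows, with role) less its mean over the 13 arrays (columns, by rearing group and replicate), with red above and blue below the gene's mean. The column of maternal array 5 is blue for most subunits, PSMB8 is brightest on peer array 3, and PSMC3IP is highest on maternal array 5.

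In the alpha ring all 4 measured genes of 7 had positive differences, of 0.17 for PSMA1, 0.19 for PSMA2 and 0.08 for PSMA7 besides PSMA3. The structural beta subunits PSMB1 (0.06 ± 0.08) and PSMB2 (0.03 ± 0.09) showed small differences. Of the constitutive catalytic subunits, PSMB5, the chymotrypsin-like site, measured 9.22, 9.56, 9.0, 9.10 and 8.88 in maternal, 9.53, 9.16, 9.10 and 9.34 in peer and 9.12, 9.21, 9.03 and 9.19 in surrogate-peer animals. The groups overlapped throughout (0.06 ± 0.11, 95% interval -0.18 to 0.30). PSMB6, the caspase-like site, measured 10.28, 10.37, 10.45, 10.37 and 9.87, then 10.46, 10.22, 10.28 and 10.63, then 10.40, 10.56, 10.24 and 10.28 in the same order of groups. Apart from the low maternal array 5 its groups also overlapped (0.12 ± 0.11, interval -0.12 to 0.35). PSMB7, the trypsin-like site, measured 11.06, 11.09, 11.15, 10.95 and 10.62 in maternal, 11.27, 11.14, 11.14 and 11.34 in peer and 11.41, 11.22, 11.24 and 11.13 in surrogate-peer animals. Its maternal values lay at the low end, with maternal array 3 reaching into the other groups, and the difference did not pass the threshold (0.26 ± 0.09, adjusted p = 0.0883).

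All 5 cap ATPases measured of 6 had differences at or above 0, with 0.24 for PSMC2 (adjusted p = 0.105), 0.10 for PSMC3 and PSMC5 and 0.00 for PSMC4 besides PSMC6. Among the 7 non-ATPase subunits measured of 11, PSMD1 (0.29 ± 0.10, adjusted p = 0.084), PSMD6 (0.26 ± 0.11, adjusted p = 0.149) and PSMD7 (0.21 ± 0.11, adjusted p = 0.227) did not pass the threshold. PSMD1 measured 9.89, 9.92, 10.03, 9.79 and 9.43 in maternal, 10.24, 9.99, 10.13 and 10.17 in peer and 10.04, 10.26, 9.96 and 10.04 in surrogate-peer animals, so that only maternal array 3 reached into the other groups.

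**Figure D3:**
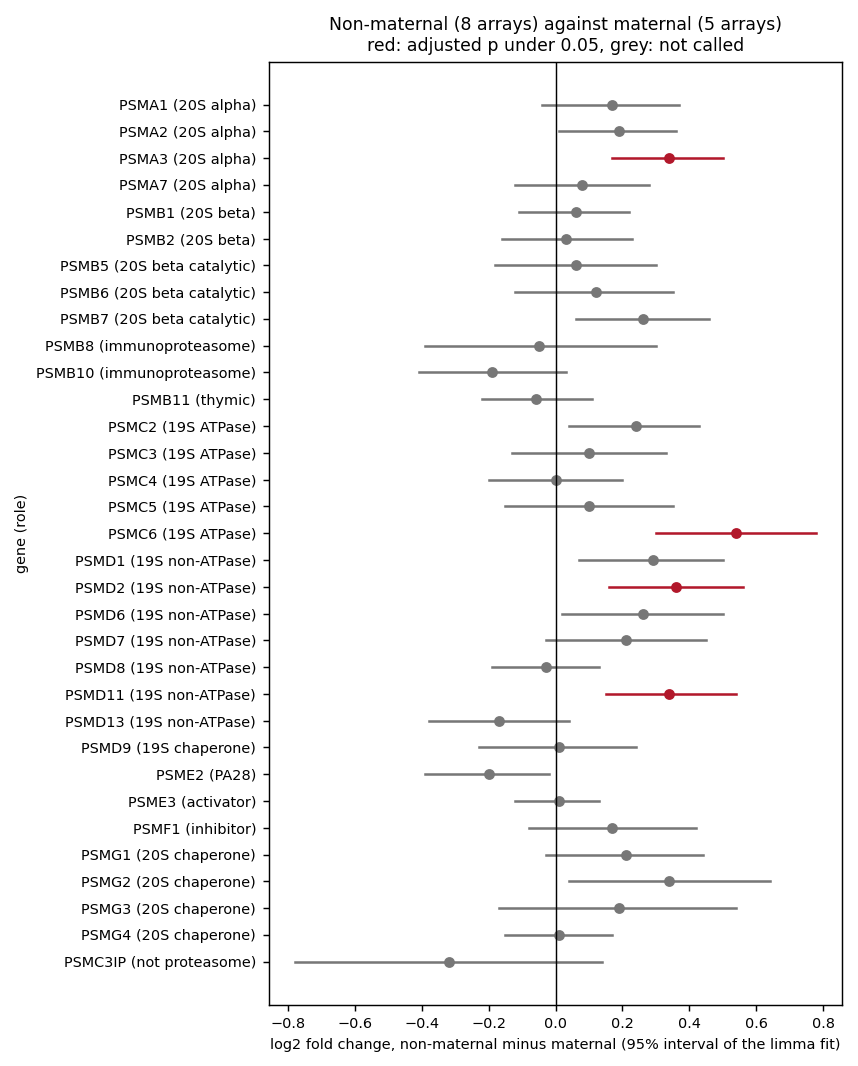
Log2 fold change of non-maternal (n = 8) against maternal animals (n = 5) for the 33 genes, ordered by role (vertical axis), with the 95% interval of the limma fit (horizontal axis). The 4 genes past the adjusted threshold, PSMA3, PSMC6, PSMD2 and PSMD11, are red and lie between 0.34 and 0.54, while PSMB8, PSMB10 and PSME2 lie between -0.20 and -0.05.

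The interferon-inducible genes measured were PSMB8, PSMB10 and PSME2, 3 of the 5 that make up the immunoproteasome and PA28. Their differences between non-maternal and maternal animals were below 0, also after centring and after quantile normalization, with a median of -0.19. None passed the threshold of limma, and only PSME2 had an unadjusted p under 0.05. With the 3' to 5' ratio as a covariate the differences were -0.37 for PSMB8, -0.07 for PSMB10 and -0.35 for PSME2, again without a call.

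PSME2, the beta subunit of PA28, measured 11.10, 11.36, 11.31, 11.06 and 11.30 in maternal animals. It stood at 11.05, 10.82, 11.26 and 11.09 in peer and at 11.12, 10.90, 10.92 and 11.02 in surrogate-peer animals. Maternal arrays 2, 3 and 5 lay above all others, with peer array 3 close below them, and maternal arrays 1 and 4 lay among the non-maternal values. The log2 fold change was -0.20 ± 0.09 (95% interval -0.39 to -0.02; adjusted p = 0.14).

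PSMB10, which replaces PSMB7, measured 10.29, 10.48, 10.79, 10.54 and 10.23 in maternal animals. The peer arrays gave 10.33, 10.08, 10.36 and 10.48 and the surrogate-peer arrays 10.33, 10.37, 10.08 and 10.20. Maternal arrays 3 and 4 exceeded every non-maternal array, maternal array 2 matched the highest of these, and the log2 fold change was -0.19 ± 0.10 (interval -0.41 to 0.03; adjusted p = 0.24). A dimmer PSMB10 probe set gave -0.09 ± 0.09, and a probe set assigned to PSMB10 together with BEX4 gave 0.02.

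PSMB8, which replaces PSMB5, measured 11.02, 11.85, 11.56, 11.36 and 11.79 in maternal animals. The peer values were 11.48, 11.57, 12.10 and 11.76, and the surrogate-peer values 11.64, 11.07, 11.05 and 11.09. Maternal array 1 was thus the lowest of all arrays and peer array 3 the highest, and the maternal values covered most of the range. The log2 fold change of non-maternal against maternal animals was -0.05 ± 0.16 (interval -0.39 to 0.30; adjusted p = 0.867), and it was 0.16 without maternal arrays 2 and 5, which had the highest interferon scores.

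The inducible genes were then set against the constitutive ones on each array, as the mean of the 3 centred inducible values less the mean of the 21 centred constitutive values. This difference was -0.15, 0.27, 0.27, 0.10 and 0.49 on the maternal arrays. It was -0.19, -0.14, 0.26 and -0.00 on the peer arrays and -0.04, -0.33, -0.31 and -0.22 on the surrogate-peer arrays. Its group means were 0.19 ± 0.24 (SD, n = 5) for maternal, -0.02 ± 0.20 (SD, n = 4) for peer and -0.22 ± 0.14 (SD, n = 4) for surrogate-peer animals. Maternal array 1 lay within the range of the surrogate-peer arrays and peer array 3 within that of the maternal ones, so the groups overlapped. Non-maternal animals differed from maternal ones by -0.31, of which -0.15 came from the inducible and 0.17 from the constitutive genes. No test was made of this value, since the members were chosen with earlier results of these data known. Leaving out single arrays gave -0.40 to -0.24, and leaving out both maternal arrays 2 and 5 gave -0.19.

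The pairs of exchangeable catalytic subunits gave different pictures. PSMB10 less PSMB7, both centred, was 0.02, 0.18, 0.43, 0.37 and 0.40 on the maternal arrays. It was -0.16, -0.27, 0.00 and -0.08 on the peer and -0.29, -0.07, -0.37 and -0.16 on the surrogate-peer arrays. All maternal values lay above all others, although maternal array 1 and peer array 3 differed by little, and the group difference was -0.45. The share of other gene pairs that separate in this way was not computed. The pair rests on the brightest PSMB10 probe set, which gave -0.19 in non-maternal against maternal animals. A dimmer PSMB10 set gave -0.09, and the set shared with BEX4 gave 0.02. PSMB8 less PSMB5 covered -0.49 to 0.61 in the maternal group and -0.45 to 0.70 outside it, with a difference of -0.11 and full overlap. Neither pair was tested, and the pair of PSMB9 and PSMB6 was not analysed here.

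**Figure D4:**
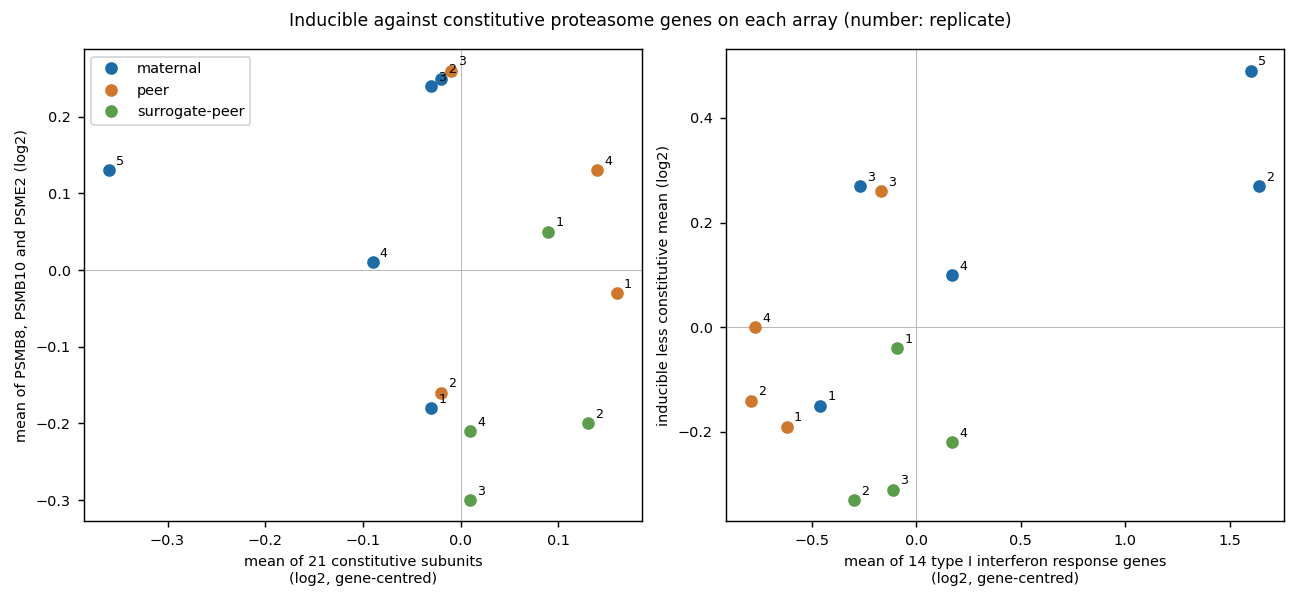
Left, mean of PSMB8, PSMB10 and PSME2 (vertical axis) against the mean of 21 constitutive subunits (horizontal axis) on each array, both in log2 and centred per gene. Right, the inducible less the constitutive mean (vertical axis) against the mean of 14 type I interferon response genes (horizontal axis); colours mark the rearing groups and numbers the replicate. Maternal arrays 2 and 5 stand apart at 1.64 and 1.60 on the interferon axis, and maternal array 5 at -0.36 on the constitutive axis.

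The peer and the surrogate-peer group were each also compared with the maternal group. Both comparisons use the same 5 maternal arrays, so their values are given side by side and are not independent. For peer animals limma called 0 of the 33 members, with 8 at an unadjusted p under 0.05, where it called 0.197% of all genes and 25.8% had an unadjusted p under 0.05. For surrogate-peer animals it also called 0, with 9 at an unadjusted p under 0.05, against 0% and 20.1% of all genes. PSMC6 differed by 0.51 ± 0.13 in peer (adjusted p = 0.063) and by 0.57 ± 0.13 in surrogate-peer animals (adjusted p = 0.0832). PSMA3 differed by 0.35 ± 0.09 (adjusted p = 0.0651) and 0.32 ± 0.09 (adjusted p = 0.107), PSMD2 by 0.34 ± 0.11 and 0.38 ± 0.11, and PSMD11 by 0.35 ± 0.10 and 0.34 ± 0.10. Without maternal array 1 these 4 genes were called in each of both comparisons, where the calls over all 26353 probe sets then tested also rose, from 93 to 3484 in peer and from 0 to 2095 in surrogate-peer animals. Peer values lay wholly above the maternal ones for 3 members, PSMA3, PSMC6 and PSMD2, where 5.13% of all genes did so, and surrogate-peer values for 4, these and PSMD11, where 2.69% did.

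Among the genes lower in these comparisons none was called. PSME2 gave -0.17 ± 0.10 in peer (adjusted p = 0.297) and -0.24 ± 0.10 in surrogate-peer animals (adjusted p = 0.218), and PSMB10 gave -0.15 ± 0.12 and -0.22 ± 0.12. PSMD13 gave -0.16 ± 0.12 and -0.18 ± 0.12. PSMB8 alone among the inducible genes had estimates on either side of 0, 0.21 ± 0.19 (interval -0.20 to 0.62) in peer and -0.30 ± 0.19 (interval -0.71 to 0.11) in surrogate-peer animals. The constitutive subunits had medians of 0.14 and 0.15, with 18 and 17 of 21 positive, and the inducible less constitutive mean differed from the maternal one by -0.21 and -0.42, or by -0.09 and -0.30 without both maternal arrays 2 and 5.

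Surrogate-peer and peer animals were compared directly, and here limma called 0 members and 0% of all genes. PSMB8 was the only member with an unadjusted p under 0.05, where 1.87% of all genes had one. It was lower in surrogate-peer animals by -0.51 ± 0.20 on the log2 scale (95% interval -0.95 to -0.08; unadjusted p = 0.0241, adjusted p = 1). Surrogate-peer arrays 2, 3 and 4 lay below all peer arrays, while surrogate-peer array 1 lay among them, and without that array the difference was -0.66. It was -0.39 without peer array 3 (unadjusted p = 0.0818) and -0.46, -0.46 and -0.47 without surrogate-peer array 2, 3 or 4 (unadjusted p = 0.059, 0.0617 and 0.0572), and the adjusted p was 1 each time. Other genes moved between the same groups: the 8 B cell markers had a median difference of -0.92 with 0 positive, and the 14 type I interferon genes a median of 0.40 with 14 positive. On surrogate-peer arrays 1 to 4 the B cell mean was -0.93, -1.20, -0.21 and -0.25, while PSMB8 was high on array 1 alone. The part of B cells in the PSMB8 difference was not tested. The other members with the smallest p were PSMF1 (-0.16 ± 0.14) and PSMB5 (-0.15 ± 0.14) on the lower and PSMB1 (0.13 ± 0.09), PSMB11 (0.09 ± 0.10) and PSMA2 (0.09 ± 0.10) on the higher side. For the genes that rose in non-maternal animals the intervals of this difference were -0.23 to 0.19 for PSMA3, -0.20 to 0.29 for PSMD2, -0.25 to 0.22 for PSMD11 and -0.24 to 0.36 for PSMC6. No member separated the groups, against 1.83% of all genes, and the constitutive subunits had a median of -0.02.

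Among the members, PSME3, the inhibitor and the assembly chaperones had no call in any of the 4 comparisons. Of all genes 6.3% were called higher and 1.69% lower in non-maternal against maternal animals. In peer against maternal animals 0.197% were called, and 0% in each of the others. With the number in the sample titles as a covariate PSMF1 and PSMG2 were called in the first comparison, where calls over all probe sets rose from 2107 to 3127. PSME3, the nuclear activator PA28 gamma, had the smallest spread of all members, from 7.37 to 7.56 over the 13 arrays, and a difference between non-maternal and maternal animals of 0.01 ± 0.06 (interval -0.12 to 0.13). PSMF1, the inhibitor PI31, gave 0.17 ± 0.11 (adjusted p = 0.327). The chaperones of core assembly gave 0.21 ± 0.11 for PSMG1, 0.34 ± 0.14 for PSMG2, 0.19 ± 0.16 for PSMG3 and 0.01 ± 0.07 for PSMG4. PSMG2 measured 10.19, 9.87, 10.12, 9.95 and 9.34 in maternal, 10.20, 10.11, 10.31 and 10.54 in peer and 10.34, 10.22, 10.22 and 9.89 in surrogate-peer animals, with maternal array 5 far below the rest. PSMD9, a chaperone of the cap's base, gave 0.01 ± 0.11, and the thymic catalytic subunit PSMB11, whose mean of 6.14 was barely above the filter of 6.04, gave -0.06 ± 0.08. PSMC3IP, the gene without a part in the proteasome, had the widest spread of the 33, from 11.14 on peer array 4 to 12.38 on maternal array 5, and gave -0.32 ± 0.21 (adjusted p = 0.329).

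Of the 33 genes 23 had several probe sets, and these did not always move together. For PSMG2 the representative set gave 0.34 and a dimmer one -0.18 ± 0.06 (adjusted p = 0.0962). For PSMA2 the 5 sets gave 0.19, 0.20, -0.13, 0.06 and 0.02, for PSMF1 the 4 sets 0.17, 0.27, 0.18 and -0.06, and for PSMB1 the pair gave 0.06 and -0.03. PSMC4 gave 0.00 and -0.06 at the sets that passed the filter. PSMC5 gave 0.10 at the representative set and 0.26 ± 0.08 (adjusted p = 0.0542) at the other. PSMC3IP was below 0 at all 8 of its sets, between -0.44 and -0.04. PSMG4 gave 0.01 and -0.13 ± 0.05 (adjusted p = 0.128). Sets under the filter, which were not tested, gave -0.06 for PSMA3, -0.11 for PSMA7, -0.01 and 0.13 for PSMB2, 0.28 for PSMC4, -0.10 and -0.12 for PSME3 and -0.05 for PSMG1. Apart from the sets of PSMA3, PSMD11 and PSMC6 given above, no further set of a member was called.

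Genes that work with the proteasome were taken from 3 lists, whose counts stand beside the 6.3% of all genes called higher and 1.69% called lower. Of 33 partners, regulators and assembly genes 20 were measured, and in non-maternal against maternal animals 1 was higher and 0 lower, with 16 positive and a median of 0.09. The gene that rose was UBE3C (0.41 ± 0.08, adjusted p = 0.0236), a ubiquitin ligase that binds the proteasome. Of 17 genes of interferon gamma signalling 10 were tested, with a median of -0.38. Of these 3 were positive, JAK2 (0.09), CIITA (0.07) and IRF8 (0.05), and 0 were called higher and 1 lower. That gene was UBE2L6 (-0.41 ± 0.10, adjusted p = 0.0317), the conjugating enzyme for the interferon-induced modifier ISG15, while ISG15 itself gave -1.16 ± 0.37 (adjusted p = 0.0687), and IRF1 and NLRC5, activators of inducible subunits and MHC class I genes, gave -0.38 ± 0.25 and -0.42 ± 0.16 without a call. Of 15 genes of class I peptide supply 12 were tested, 1 higher and 3 lower, with 5 positive and a median of -0.06. TPP2, a cytosolic peptidase that acts after the proteasome, rose by 0.36 ± 0.09 (adjusted p = 0.0409). TAP2, a chain of the peptide transporter, fell by 0.52 on the log2 scale (SE 0.15, adjusted p = 0.0489), the loading chaperone TAPBP by 0.28 (SE 0.07, adjusted p = 0.0427) and its relative TAPBPL by 0.56 (SE 0.13, adjusted p = 0.0282). TAP1, the other transporter chain, gave -0.46 ± 0.17 (adjusted p = 0.0949). Of these 6 calls none remained without maternal array 4, maternal array 5 or peer array 1, 1 remained (UBE3C) without peer array 2 or surrogate-peer array 3, and 2 (UBE3C and TAPBPL) without peer array 4 or surrogate-peer array 4. Without maternal array 3, peer array 3 or surrogate-peer array 1 there were 3, UBE3C and TAPBPL among them. None remained without both maternal arrays 2 and 5, only TAP2 and TAPBPL remained with the 3' to 5' ratio as a covariate, and UBE3C, UBE2L6 and TAPBPL remained with no filter on low values. ISG15 and STAT2 also belong to the type I interferon genes that were high on maternal arrays 2 and 5, and the part of those arrays in the list's median was not tested.

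In the other comparisons no gene of these lists was called. UBE3C and MIDN had the smallest p of the partners in both comparisons with maternal animals, 0.46 ± 0.10 and -0.48 ± 0.16 in peer and 0.37 ± 0.10 and -0.41 ± 0.16 in surrogate-peer animals. ISG15 and UBE2L6 gave -1.38 ± 0.43 and -0.36 ± 0.11 in peer animals, and UBE2L6 and NLRC5 -0.45 ± 0.11 and -0.44 ± 0.19 in surrogate-peer animals. Of the peptide supply list these were TAPBPL (-0.58 ± 0.15) and TAPBP (-0.26 ± 0.09), and TPP2 (0.41 ± 0.11) and TAPBPL (-0.54 ± 0.15). Between surrogate-peer and peer animals they were ADRM1 (0.13 ± 0.10) and NFE2L2 (-0.18 ± 0.16), CIITA (-0.20 ± 0.09) and IRF8 (-0.39 ± 0.24), and ERAP2 (-1.0 ± 0.41) and TPP2 (0.10 ± 0.12).

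Whether the inducible genes varied together was examined over the 13 arrays in a family of 6 correlations, and none passed adjustment over the 6. PSMB8 and PSME2 had Pearson r = 0.63 (permutation p = 0.0234, adjusted p = 0.0759) and Spearman rho = 0.60 (permutation p = 0.034, adjusted p = 0.204). The coefficient was 0.66 without the 2 arrays farthest from the median of PSMB8 and 0.80 after the group means were subtracted. PSMB10 and PSME2 had r = 0.59 (permutation p = 0.034, adjusted p = 0.0759) and rho = 0.53 (permutation p = 0.0684, adjusted p = 0.205), and r fell to 0.39 without 2 arrays and to 0.39 after subtraction of group means. PSMB8 and PSMB10 had r = 0.29 (permutation p = 0.347, adjusted p = 0.416) and rho = 0.30 (permutation p = 0.316, adjusted p = 0.38). With TAP1, whose gene lies near PSMB8 in the MHC region and which was chosen after the annotation was seen, r was 0.58 for PSME2 (permutation p = 0.0379, adjusted p = 0.0759; rho = 0.43, permutation p = 0.141), 0.50 for PSMB8 (permutation p = 0.0823, adjusted p = 0.124; rho = 0.35, permutation p = 0.249) and 0.16 for PSMB10 (permutation p = 0.612, adjusted p = 0.612; rho = 0.21, permutation p = 0.484). Maternal arrays 2 and 5 stood apart in interferon score, and without them r was 0.52 for PSMB8 with PSME2, 0.73 for PSMB10 with PSME2 and 0.28 for PSME2 with TAP1.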

How the data were processed

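Per the submitters' processing notes, the authors made the deposited values, log2 expression of each probe set, by RMA (robust multi-array averaging); its version and settings, and whether the 13 arrays were normalized together, were not given in the sources used here. The log2 scale was read from the deposited values. An array has no depth, so precision rests on the number of arrays. Of 52865 probe sets 158 controls were left out, and of the other 52707 the annotation gives 24956 a single gene symbol, 361 several and 27390 none. Tests were limited to the 26352 probe sets whose mean lay above the median of all means, 6.04.

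Contrasts were tested with limma 3.58.1 (lmFit, eBayes) in R 4.3.3 over all 13 arrays, adjusted by Benjamini-Hochberg over all tested probe sets with a threshold of 0.05; p-values are two-sided. Groups share 1 estimate of the spread, which makes errors too small where maternal values vary more. The share of all genes called was taken over the brightest tested probe set of each of 9657 genes. Correlations used 100000 permutations in SciPy 1.17.1. The script was tested on simulated data.

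Named members were PSMB5 to PSMB8, PSMB10, PSME2, every member called, and otherwise the 3 of smallest p in a direction; members whose probe sets differed in sign or call were given by probe set, and of each pathway list the called genes or the 2 of smallest p. PSMD1, PSMG2 and the genes listed by role were added to describe each role. In non-maternal against maternal animals ISG15, IRF1, NLRC5, STAT2, TAP1 and the positive interferon gamma genes were also named, outside this rule. Members and lists were chosen with earlier results of these data known. Alternatives were the filter, the scaling, leaving out arrays, array weights, a variance trend, the groups in the fit, the 3' to 5' ratio or the title number as covariate, and the probe set or genes used.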

Additional observations from a re-analysis of the deposited data

Results flagged for a closer look

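Within a rearing group, 3 of 99 sets of values, 1 for each of 33 genes and 3 groups, held a value far from its group by Dixon's test, where chance gives about 1 in 20. PSMB8 measured 11.64 on surrogate-peer array 1, against 11.05 to 11.09 on the other surrogate-peer arrays. PSMA2 measured 11.12 on surrogate-peer array 3, against 11.27 to 11.30 on the others of its group. PSMD8 measured 9.75 on maternal array 2, against 9.41 to 9.50 on the other maternal arrays.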

How the results depend on the processing

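The count of 4 members called in non-maternal against maternal animals became 2 after centring, 1 after quantile normalization, 1 without both maternal arrays 2 and 5, and 9 with the title number, of unstated meaning, as a covariate; leaving out single arrays gave 0 to 5, the latter without maternal array 1. Calls over all probe sets moved too, from 2107 to 3127 with the title number and 4823 without maternal array 1. All surrogate-peer title numbers lay below all peer ones, and the maternal ones overlapped both, so this covariate is partly confounded with rearing. In peer against maternal animals the count of 0 became 2 with array weights, 3 with the 3' to 5' ratio and 4 with the title number as covariate, and 0 to 4 with single arrays left out; in surrogate-peer against maternal animals leaving out single arrays gave 0 to 4. In the peer comparison the calls over all probe sets rose with these covariates and weights as well, from 93 to 1543, 1445 and 1819 in the same order. The cause of these changes was not tested. Between surrogate-peer and peer animals the count was 0 in all 24 alternatives. PSMB8 in non-maternal against maternal animals changed sign without maternal array 2 (0.04), maternal array 5 (0.02) or both (0.16), with a range of -0.17 to 0.04 over single arrays left out, and the correlation of PSMB10 with TAP1 became -0.26 after subtraction of group means. Without single arrays the inducible less constitutive difference ran from -0.40 to -0.24 for non-maternal, -0.31 to -0.14 for peer and -0.50 to -0.34 for surrogate-peer against maternal animals, and from -0.27 to -0.11 between surrogate-peer and peer animals; without both maternal arrays 2 and 5 the first 2 of these became -0.19 and -0.09. The alternatives for the means and counts of constitutive and inducible genes alone, for genes outside the proteasome and for correlations with TAP1 were added after seeing the data. No paired analysis was possible because the labels give the groups no shared replicate numbers.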
